A study of Mus musculus with 9 samples.

Results

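Dual-specificity phosphatases are enzymes that remove phosphate from tyrosine as well as from serine and threonine. Of the 20926 genes measured by RNA sequencing in mouse blood, 10 are described here: Dusp1, Dusp2, Dusp4, Dusp5, Dusp6, Dusp7, Dusp10, Dusp11, Dusp16 and Dusp22. They were picked by gene symbol, as MAP kinase phosphatases together with Dusp22 and Dusp11, and with earlier results of these data known. All 10 passed the filter on low values. Because of the way they were chosen, their values are given as a description of the family and not as a test of it.

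The blood, labelled as blood leukocyte, came from male DBA/1 mice in 3 groups of 3 libraries, and the age of 7 weeks in the labels is, per the study's methods, that at which the mice were put into groups, before immunization and irradiation. Ctrl mice were non-irradiated controls without induced arthritis, and whether they had mock injections is not given in the sources used here. CIA mice had collagen-induced arthritis, an immune model of rheumatoid arthritis set off by injecting type II collagen in adjuvant. CIA+THz mice were arthritic in the same way, and their swollen ankle joints were irradiated at 0.1 THz for 30 min a day over 14 days. Irradiated mice were held under isoflurane during each exposure. Whether the CIA and Ctrl mice were also anaesthetised is not given, so that the effects of irradiation and of anaesthesia cannot be told apart. The labels do not say that the libraries of a group were separate mice, and a p-value then measures only the spread between these samples.

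MAP kinases carry signals from cytokine, antigen and stress receptors to the nucleus, and they work only while a threonine and a tyrosine in their activation loop are both phosphorylated. MAP kinase phosphatases remove both phosphates and so switch ERK, JNK or p38 off again, and several are themselves transcribed in response to the kinases they silence. In leukocytes they are known as brakes on cytokine production and lymphocyte activation.

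Bases before the RefSeq transcription start are shown for 3 members, because each holds a motif that was found in no other matched member. The sequences are from RefSeq (GRCm38.p6, matched by symbol for 9 of the 10 genes, all but Dusp4), run 5′ to 3′ on the gene's own strand, and stop where a GENCODE exon of the gene begins. Capitals mark the cAMP response element TGACGTCA and its half-site TGACG in Dusp1 (chr17:26508520-26508722, minus strand), the CArG boxes to which serum response factor binds in Dusp5 (chr19:53528895-53529108, plus strand) and the overlapping NF-kB type matches in Dusp22 (chr13:30659809-30659998, plus strand).
Dusp1: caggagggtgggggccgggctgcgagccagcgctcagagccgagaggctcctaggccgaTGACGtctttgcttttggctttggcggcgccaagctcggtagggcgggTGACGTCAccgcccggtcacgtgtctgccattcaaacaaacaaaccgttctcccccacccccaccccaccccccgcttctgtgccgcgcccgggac
Dusp5: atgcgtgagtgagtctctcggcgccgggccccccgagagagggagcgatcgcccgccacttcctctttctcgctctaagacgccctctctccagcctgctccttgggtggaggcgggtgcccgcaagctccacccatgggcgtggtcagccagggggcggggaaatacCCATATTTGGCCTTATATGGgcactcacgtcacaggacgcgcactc
Dusp22: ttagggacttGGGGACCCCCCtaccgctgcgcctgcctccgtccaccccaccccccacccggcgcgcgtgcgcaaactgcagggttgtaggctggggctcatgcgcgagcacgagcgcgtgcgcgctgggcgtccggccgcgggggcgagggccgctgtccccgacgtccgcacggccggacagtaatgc

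Each motif was searched on both strands in the 250 bases before the start of 32851 RefSeq promoters. Positions are counted back from the RefSeq start. That start lies past the end of the 203, 214 and 190 bases printed for Dusp1, Dusp5 and Dusp22. The full cAMP response element was found in Dusp1 alone among the 9 matched members, from 136 to 143 bases before the start, and in 1.55% of all promoters. Half-sites, present in 17.8% of all promoters, were counted 3 times in Dusp1, where 2 of them are the overlapping ends of the full element, and once each in Dusp5, Dusp16 and Dusp11. The Dusp5 promoter held a pair of adjoining CArG boxes from 63 to 82 bases before the start, a motif found in 1.47% of all promoters. The NF-kB type motif was found in Dusp22 from 230 to 240 bases before the start, with 2 overlapping matches, and in 7.25% of all promoters. No cAMP response element or half-site was found in the windows of Dusp22, Dusp2, Dusp6, Dusp7 and Dusp10. The GC content of the Dusp22 window was 77.6%, against a median of 52.4% for all promoters. All 9 matched members were above that median, from 54.0% for Dusp11 upward, with Dusp7 at 77.2%. A match describes letters only and does not show that a factor binds there.

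Levels are given as FPKM, fragments counted per length of transcript and per size of library, divided by 1 factor per library that brings the libraries to a common scale. Dusp1, an immediate early gene whose product acts mainly on p38 and JNK, had the highest mean at 133 ± 30.1 rescaled FPKM (SD, n = 9) and ranked 479 of the 12366 genes tested. It made up 42.0% to 58.9% of the summed level of the 10 genes in each library. Dusp11 followed at 54.5 ± 6.13 rescaled FPKM, then Dusp6 at 28.3 ± 4.57, Dusp2 at 25.8 ± 3.44, Dusp16 at 9.51 ± 2.07, Dusp22 at 8.28 ± 4.22, Dusp5 at 6.60 ± 1.63, Dusp7 at 4.71 ± 1.02, Dusp10 at 1.91 ± 0.451 and Dusp4 at a mean of 0.456. The ranges over libraries overlapped between the neighbours Dusp6 and Dusp2, Dusp16 and Dusp22, Dusp22 and Dusp5, and Dusp5 and Dusp7, so their order was not fixed. Every other pair of neighbours stood in the stated order in 9 of 9 libraries.

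**Figure D1:**
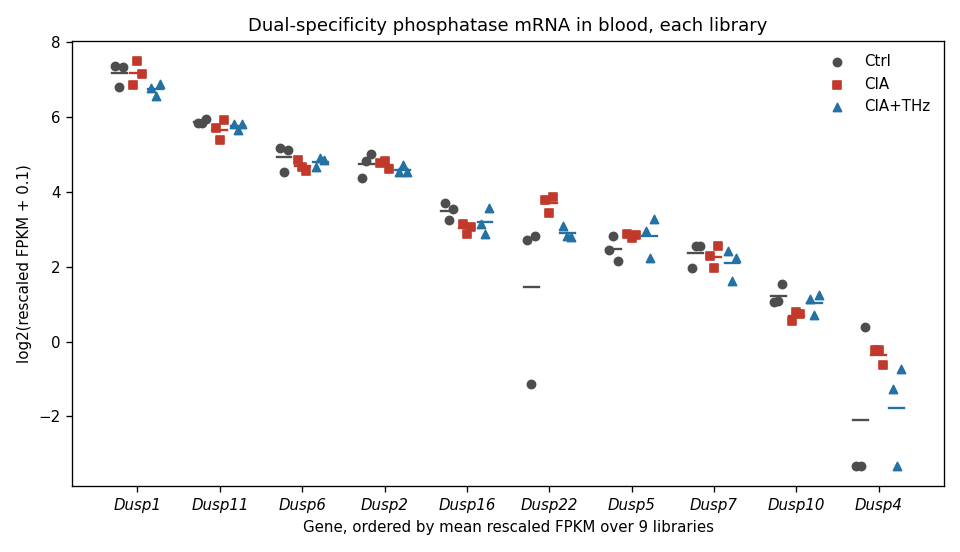
Level of each of the 10 genes in every library, as log2(rescaled FPKM + 0.1), in order of the mean over the 9 libraries, with short bars for the mean of each group's 3 log2 values. Dusp1 lies highest in every library, Dusp22 of Ctrl replicate 2 lies far below its other 8 values, and the lowest points of Dusp4 are libraries in which it is listed at 0.

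A difference between groups is given as the log2 fold change with its standard error, fitted with limma on log2(rescaled FPKM + 0.1) and the 6 libraries of each pair of groups. It passed the criterion of the study where the unadjusted p was under 0.05 and the absolute log2 fold change above 0.67, and adjusted p-values are Benjamini-Hochberg values over all genes tested. Between CIA and Ctrl, 0 of the 10 genes passed, against 9.04% of all genes tested. After irradiation, CIA+THz against CIA, 1 of 10 passed, against 4.54% of all genes tested, and this was Dusp22, which was lower, as were 1.6% of all genes by the same criterion. For CIA+THz against Ctrl 0 of 10 passed, against 7.88%. At an unadjusted p under 0.05 alone, limma gave 1, 2 and 1 of the 10 genes in these comparisons, against 17.3%, 13.2% and 18.1% of all genes. With an adjusted p under 0.05 it gave 0 of the 10 in each, against 0.154%, 0% and 0.105%. Over the 3 groups together, 0 of 10 had an unadjusted p under 0.05 in the limma F-test, against 21.3% of all genes, and the lowest was 0.053 for Dusp22. The comparisons share groups and are not independent of each other.

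The median size of a difference among the 10 genes was below that over all genes tested in each comparison, most so for CIA+THz against CIA. The genes compared were not matched for level, so this is not shown to be a trait of the family. By mean level, Dusp1, Dusp11, Dusp6 and Dusp2 stood at percentiles 96, 91, 84 and 83 of the genes tested. Dusp7, Dusp10 and Dusp4 stood at 49, 31 and 13, and the remaining members in between. The median absolute log2 fold change of the 10 genes was 0.30 for CIA against Ctrl, 0.17 for CIA+THz against CIA and 0.29 for CIA+THz against Ctrl. Over all genes tested it was 0.34, 0.26 and 0.31. The signed medians of the 10 were -0.05, -0.07 and -0.14, against -0.01, 0.03 and 0.04 over all genes.

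**Figure D2:**
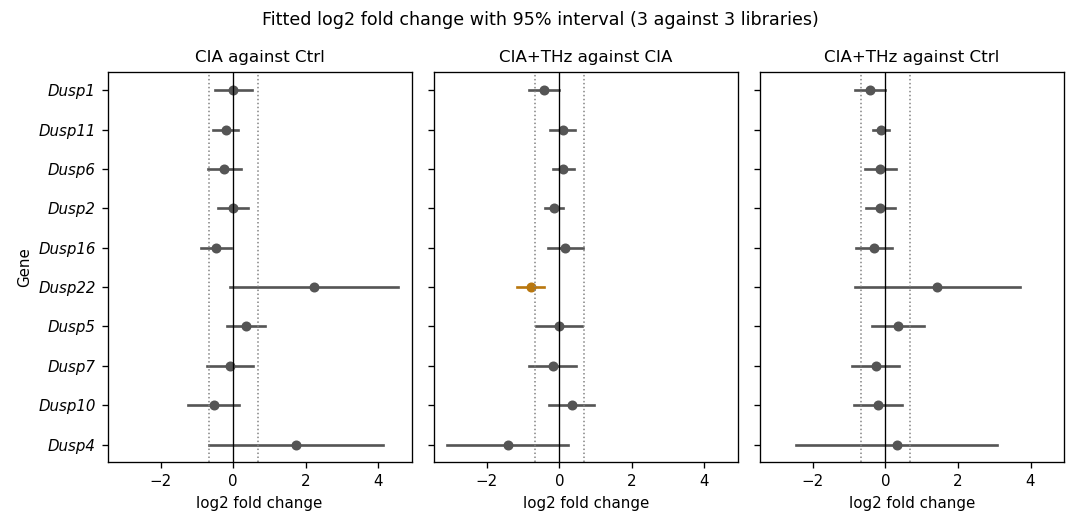
Fitted log2 fold change of each gene (points) with its 95% interval (lines) in the 3 comparisons, with dotted lines at the fold threshold of 0.67 in either direction. Dusp22 between CIA+THz and CIA, at -0.79 with an interval of -1.18 to -0.41, is the one point past the criterion (orange). The widest intervals belong to Dusp4 and Dusp22 in the comparisons with Ctrl, and to Dusp4 in CIA+THz against CIA.

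Dusp22, an atypical member without the kinase-docking domain of the MAP kinase phosphatases, is known to dephosphorylate Lck, the kinase that starts T cell receptor signalling. Its gene lies at chr13:30659999-30711231 on the plus strand. Rescaled FPKM of Dusp22 were 6.40, 0.359 and 7.02 in Ctrl replicates 1, 2 and 3. They were 13.5, 10.8 and 14.3 in CIA, and 8.36, 6.91 and 6.86 in CIA+THz. All 3 CIA libraries were thus above all 6 others, the lowest CIA value being 10.8 and the highest value outside CIA 8.36, while Ctrl and CIA+THz overlapped. With FPKM as deposited the gap was narrow, at 10.43 in CIA replicate 2 and 10.36 in CIA+THz replicate 1. On that scale CIA+THz, from 7.54 upward, did not overlap Ctrl, which reached 7.41.

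Dusp22 fell by 0.79 on the log2 scale from CIA to CIA+THz (SE 0.16, limma, adjusted p = 0.207), with group means of 12.9 ± 1.88 and 7.38 ± 0.850 rescaled FPKM (SD, n = 3). The CIA mean was 1.75 times the CIA+THz mean. The decrease passed the criterion with each of the 6 libraries left out in turn, at -0.91 to -0.71. It did not pass with FPKM as deposited, at -0.52, a scale on which the median of all genes stood at 0.29 instead of 0.03 and Dusp22 was 0.81 below that median. Nor did it pass in a fit of all 3 groups at once, where Ctrl replicate 2 entered the shared spread (unadjusted p = 0.348), and without that library the same fit gave 0.001.

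Between CIA and Ctrl, Dusp22 had a log2 fold change of 2.22 (SE 0.99, limma, adjusted p = 0.305) that missed the criterion, with a Ctrl mean of 4.59 ± 3.68 rescaled FPKM (SD, n = 3). Ctrl replicate 2 set both the size and the spread of this value. Its 0.359 was the lowest of the 9 libraries by a factor of 17.8, and Dusp22 was 1 of 34 genes with a mean of at least 1 that lay more than 10 times below every other library there, and the other libraries had 2 to 32 such genes. Few of these genes were at 5 or more in all other libraries, as Dusp22 was, with 2 in Ctrl replicate 2 and 0 or 1 elsewhere. Without Ctrl replicate 2 the log2 fold change was 0.92 and passed the criterion, and CIA was 1.92 times the mean of the other Ctrl libraries, 6.71. Leaving out Ctrl replicate 1 or Ctrl replicate 3 instead also brought it past the criterion, at 2.83 and 2.90. Against Ctrl, CIA+THz had a log2 fold change of 1.43 (SE 0.97) with all libraries and 0.13 without Ctrl replicate 2, neither past the criterion.

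In bulk blood, fewer cells of a type and less RNA per cell cannot be told apart, so the levels of cell type markers are given beside these values. The study also counted blood cells, and it reported more lymphocytes, neutrophils and monocytes in CIA and a smaller rise in CIA+THz. Those are numbers of cells, whereas marker levels are relative to the other RNA of a library, so a lower marker level is not a lower cell count. Markers of T cells, B cells, NK cells, neutrophils, monocytes, platelets and erythroid cells were above 0 in all 9 libraries, for every one of the genes listed. The erythroid gene Alas2 alone took 11.4% to 14.0% of all FPKM in the CIA+THz libraries and 14.4% to 16.7% in the other 6, in blood labelled as leukocytes. The 7 erythroid markers summed to 79156 to 122446 rescaled FPKM in Ctrl, 97616 to 110864 in CIA and 54141 to 75114 after irradiation. The irradiated libraries also stood apart in the number of genes above 0, 12449 to 12807 against 11801 to 12264, and in the scaling factor, 1.10 to 1.24 against 0.847 to 1.06. Summed over 10 monocyte markers, rescaled FPKM was 611 to 649 in Ctrl, 907 to 1038 in CIA and 765 to 824 after irradiation. This sum was thus also highest in the 3 CIA libraries, but not every single monocyte marker followed it. By log2 fold change, 10 of 10 were higher in arthritic mice without irradiation than in controls. Irradiated mice had 8 of them lower and 2 higher than non-irradiated arthritic mice, and 6 were lower without overlap of libraries. The 11 T cell markers summed to 386 to 446 in Ctrl, 322 to 355 in CIA and 389 to 527 after irradiation, lowest where Dusp22 was highest. The 11 neutrophil markers summed to 12435 to 21008, 14589 to 19140.2 and 10700.0 to 12133 in the same order. The part of cell composition in the differences of Dusp22 was not tested.

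**Figure D3:**
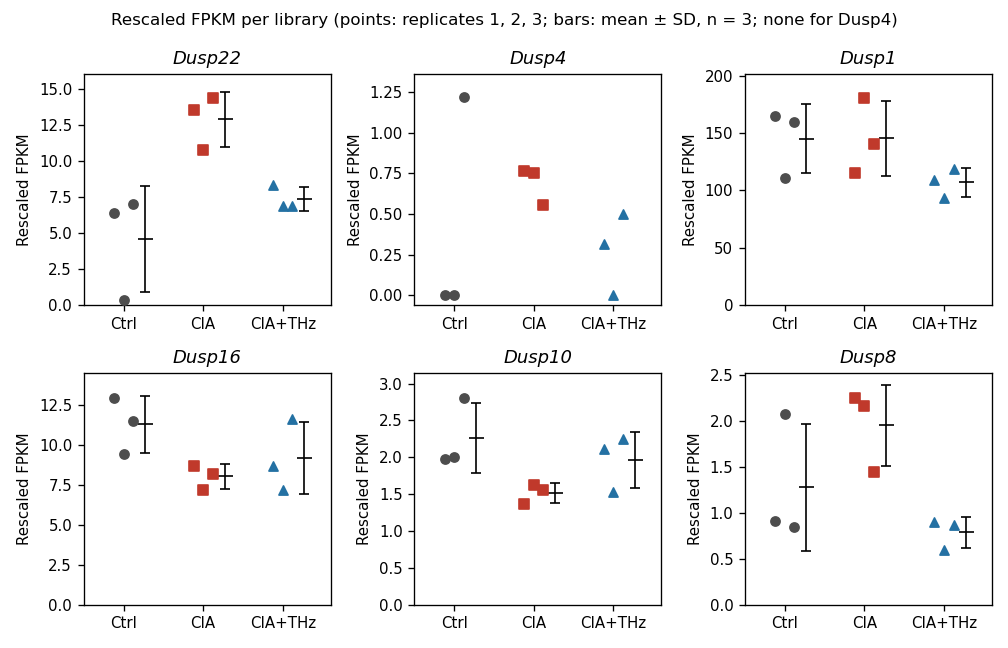
Rescaled FPKM of 5 of the 10 genes and of Dusp8 in each library, on axes of separate range, with the mean ± SD (n = 3) beside each group except for Dusp4, which is listed at 0 in 3 libraries. The CIA libraries of Dusp22, at 10.8 to 14.3, lie above all others, and those of Dusp10 and Dusp16 lie below all Ctrl libraries.

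Dusp1, Dusp2, Dusp4 and Dusp5 encode the nuclear, inducible phosphatases, and none of them passed the criterion in any comparison. Dusp1 lies at chr17:26505590-26562128 on the minus strand. Its rescaled FPKM were 165, 110.4 and 159.9 in Ctrl, 115, 180.2 and 141 in CIA, and 109, 93.3 and 118 in CIA+THz. The CIA+THz libraries lay low but overlapped both other groups through Ctrl replicate 2 and CIA replicate 1. The log2 fold change was -0.00 (SE 0.22) between CIA and Ctrl and -0.42 (SE 0.18) between CIA+THz and each of the others, below the fold threshold, with adjusted p-values from limma of 0.377 against CIA and 0.265 against Ctrl. With FPKM as deposited these values were -0.15 against CIA and -0.12 against Ctrl. The medians of all genes on that scale were 0.29 and 0.33, and relative to them Dusp1 stood at -0.44 and -0.45. With 1 library left out the rescaled values ranged from -0.58 to -0.26 against CIA and from -0.61 to -0.32 against Ctrl, the smallest without CIA replicate 2 and without Ctrl replicate 1. The summed neutrophil and erythroid markers above were likewise lower in each CIA+THz library than in any other, but single markers did not all follow the sums. With CIA as reference, the log2 fold change was negative for 11 of 11 neutrophil markers and for 5 of 7 erythroid markers. With Ctrl as reference, it was negative for 7 of 7 erythroid markers and for 7 of 11 neutrophil markers. The other 4 neutrophil markers were higher, and 3 of them passed the criterion. The part of these markers in the level of Dusp1 was not tested. The bases shown above, at chr17:26508520-26508722, lie within this gene's annotated span, which starts further upstream than the RefSeq start. At its 5′ end the annotated gene overlaps Ergic1 on the opposite strand, which is also in the table at a mean of 7.56 rescaled FPKM, and the strand setting of the counting is not given in the sources used here.

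Dusp2, a phosphatase largely limited to blood cells, was the steadiest of the nuclear group. Its rescaled FPKM were 20.7, 28.1 and 32.1 in Ctrl, 26.9, 27.9 and 24.3 in CIA, and 23.0, 26.1 and 23.0 in CIA+THz, with overlap between all groups. The log2 fold changes were -0.01 (SE 0.18) between CIA and Ctrl and -0.13 (SE 0.11) between CIA+THz and CIA, with a 95% interval of -0.38 to 0.12 for the second. With FPKM as deposited both turned positive, at 0.019 and 0.14.

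Dusp5, which acts on ERK and holds it in the nucleus, had rescaled FPKM of 5.30, 7.00 and 4.37 in Ctrl, 7.19, 6.65 and 7.08 in CIA, and 7.64, 4.64 and 9.56 in CIA+THz. The CIA libraries were close together and the CIA+THz libraries spread around them, from 4.64 to 9.56. The log2 fold changes were 0.35 (SE 0.22) between CIA and Ctrl and 0.00 (SE 0.27) between CIA+THz and CIA.

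Dusp4, an inducible phosphatase of ERK, JNK and p38, was listed at 0 in Ctrl replicates 1 and 2 and in CIA+THz replicate 2, and at 1.22 in Ctrl replicate 3. It had 0.764, 0.754 and 0.553 rescaled FPKM in CIA, and 0.319 and 0.499 in CIA+THz replicates 1 and 3. The CIA+THz values all lay under the CIA values, and the Ctrl libraries held the highest value and 2 of the 3 zeros. With FPKM as deposited Dusp4 was nearly tied, at 0.5483 in CIA+THz replicate 3 and 0.5485 in CIA replicate 3. Its fitted log2 fold changes, 1.73 (SE 1.02) between CIA and Ctrl and -1.42 (SE 0.70) between CIA+THz and CIA, missed the criterion and depend on the pseudocount. They passed it only without Ctrl replicate 3, at 2.97, and without CIA+THz replicate 3, at -1.94, respectively.

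Dusp6 and Dusp7 encode the cytoplasmic phosphatases that prefer ERK, and neither differed past the criterion. Dusp6, a feedback inhibitor that ERK signalling itself induces, had rescaled FPKM of 35.6, 23.0 and 34.6 in Ctrl, 28.9, 25.4 and 23.3 in CIA, and 25.3, 29.6 and 28.7 in CIA+THz. Ctrl replicates 1 and 3 were above the other 7 libraries, and Ctrl replicate 2 was the lowest of all. The log2 fold changes of Dusp6 were -0.24 (SE 0.19) between CIA and Ctrl and 0.11 (SE 0.12) between CIA+THz and CIA.

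Dusp7 had rescaled FPKM of 3.79, 5.75 and 5.75 in Ctrl, 4.78, 3.78 and 5.78 in CIA, and 5.23, 2.99 and 4.57 in CIA+THz, so that each group held both low and high libraries. Its log2 fold changes were -0.09 (SE 0.27) and -0.18 (SE 0.27) in the same comparisons, and the second turned to 0.094 with FPKM as deposited.

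Dusp10 and Dusp16 encode phosphatases that prefer JNK and p38. Both had lower rescaled values in every CIA library than in any Ctrl library without passing the criterion. With FPKM as deposited this held for Dusp10 only, since Dusp16 was at 8.13 in CIA replicate 3 and 7.99 in Ctrl replicate 2. On the rescaled values, groups that did not overlap were found for 3 of the 10 genes between CIA and Ctrl. These were Dusp10, Dusp16 and Dusp22, against 23.5% of all genes tested. Dusp16 had rescaled FPKM of 12.98, 9.43 and 11.5 in Ctrl, 8.70, 7.21 and 8.20 in CIA, and 8.72, 7.21 and 11.7 in CIA+THz. Its log2 fold change between CIA and Ctrl was -0.48 (SE 0.18, limma, adjusted p = 0.241), short of the fold threshold, and CIA+THz overlapped both groups. In CIA+THz against CIA it was 0.17 (SE 0.20).

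Dusp10 had rescaled FPKM of 1.97, 2.01 and 2.81 in Ctrl, 1.36, 1.63 and 1.55 in CIA, and 2.12, 1.53 and 2.25 in CIA+THz. Here too the CIA+THz libraries spanned the gap between the other groups. The log2 fold changes were -0.54 (SE 0.30) between CIA and Ctrl and 0.34 (SE 0.26) between CIA+THz and CIA. T cell markers, by the sums above, and the 7 NK cell markers, with sums of 142 to 184 in Ctrl, 50.2 to 114 in CIA and 92.9 to 147 after irradiation, were also lower in every CIA library than in any Ctrl library, and their part in Dusp10 and Dusp16 was not tested. Dusp10 overlaps 1700056E22Rik on the opposite strand, which the table lists at a mean of 0.640 rescaled FPKM.

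Dusp11, an atypical member that removes phosphates from the end of uncapped RNA and does not act on MAP kinases, varied least. Its rescaled FPKM were 56.7, 56.9 and 61.9 in Ctrl, 51.7, 41.6 and 60.0 in CIA, and 56.4, 49.6 and 56.0 in CIA+THz. All CIA+THz values lay slightly under all Ctrl values, and Dusp11 was the only 1 of the 10 genes without overlap in that comparison, against 24% of all genes tested. The log2 fold change there was -0.12 (SE 0.10), with a 95% interval of -0.35 to 0.11, and with FPKM as deposited it was 0.19. In CIA+THz against CIA, 2 of the 10 genes did not overlap, Dusp22 and Dusp4, both lower, against 19.6% of all genes.

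Across the 9 libraries, the 36 pairs among the 9 genes with a mean of at least 1 had Pearson correlations of log2 values from -0.59, for Dusp5 with Dusp6, to 0.69, for Dusp10 with Dusp16. These are descriptions, since libraries of a group share their treatment and each library its depth. Among all genes with a mean of at least 1, Dusp22 was nearest in pattern to Nckipsd, Pisd and Nmrk1, each with r = 0.98 over 9 libraries. Without Ctrl replicate 2 these values were 0.91, 0.92 and 0.92 over 8 libraries. Dusp10 was nearest to Utrn at 0.96, Limk2 at 0.93 and Dop1a at 0.93, and Dusp16 to Atad2 at 0.93, Ttc9c at 0.93 and Ep300 at 0.92. The nearest gene to Dusp1 was Zbtb39 at 0.97, to Dusp2 Cyp4f13 at 0.92, to Dusp5 Pold2 at 0.92, to Dusp6 Hnrnpk at 0.93, to Dusp7 Ifitm5 at 0.91 and to Dusp11 Zfp709 at 0.95.

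The table held 14 further genes named Dusp with a number, of which 8 passed the filter and 6 were listed at 0 in every library. Dusp3, at a mean of 26.2 rescaled FPKM, and Dusp23, at 23.4, were at the level of Dusp6 and Dusp2. Of the 8, only Dusp8, a phosphatase that prefers JNK and p38, passed the criterion in any of the 3 comparisons. Its rescaled FPKM were 0.905, 2.07 and 0.848 in Ctrl, 2.25, 2.16 and 1.44 in CIA, and 0.904, 0.595 and 0.862 in CIA+THz. It fell by 1.20 on the log2 scale from CIA to CIA+THz (SE 0.32, limma, adjusted p = 0.239), without overlap of the libraries, as for Dusp22. The decrease of Dusp8 was lost with the adjusted p in the criterion and passed under each of the other 14 alternatives run. Unlike Dusp22, it overlapped between CIA and Ctrl, through Ctrl replicate 2.

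Of 10 MAP kinases tested, 0 passed the criterion in each of the 3 comparisons, against the 9.04%, 4.54% and 7.88% of all genes, with median log2 fold changes of 0.17 for CIA against Ctrl and -0.02 for CIA+THz against CIA. Of 10 MAP kinase kinases and RAF kinases, only Braf, which activates the ERK branch, passed, and only between CIA and Ctrl. At an unadjusted p under 0.05 alone, limma gave 3 of the 10 MAP kinases and 2 of these 10 kinases for CIA+THz against CIA, beside 13.2% of all genes. Braf fell by 0.75 on the log2 scale (SE 0.22, limma, adjusted p = 0.174), from a mean of 21.9 ± 4.02 to 13.1 ± 3.37 rescaled FPKM (SD, n = 3). It missed the fold threshold without Ctrl replicate 1, at -0.61, and without CIA replicate 2, at -0.58. Of 7 scaffold proteins of MAP kinases, 0 passed in any comparison.

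Among 19 target and early response genes, 3 passed between CIA and Ctrl, 1 between CIA+THz and CIA, and 4 between CIA+THz and Ctrl, beside 9.04%, 4.54% and 7.88% of all genes tested. At an unadjusted p under 0.05 alone, limma gave 4, 4 and 9 of the 19, beside 17.3%, 13.2% and 18.1% of all genes. In CIA+THz against Ctrl, 2 of them lay above and 7 below without overlap of libraries, beside 24% of all genes in either direction. Atf3, a stress-induced transcription factor, averaged 2.62 ± 0.581 rescaled FPKM in Ctrl (SD, n = 3), against 5.57 ± 0.352 in CIA and 3.02 ± 0.581 after irradiation. It rose by 1.08 on the log2 scale from Ctrl to CIA (SE 0.24, limma, adjusted p = 0.101) and fell by 0.88 from CIA to CIA+THz (SE 0.20, adjusted p = 0.210), with its 3 CIA libraries above all others. Both calls held with each library left out, and the decrease missed the fold threshold with FPKM as deposited, at -0.61. Nr4a1, a nuclear receptor induced by antigen receptor signalling, was higher than in Ctrl in both arthritic groups, by 0.82 (SE 0.33) in CIA and 1.23 (SE 0.28) in CIA+THz on the log2 scale. The second was lost with the adjusted p in the criterion and held under each of the other 14 alternatives run. The first was also lost with FPKM as deposited, without the filter, without the variance trend, and without Ctrl replicate 1 or 2 or CIA replicate 1 or 3, at 0.56 to 0.85. In CIA+THz against Ctrl, Egr3 also rose by 1.23 (SE 0.44) and Ier3 fell by 0.91 (SE 0.27). Egr3 passed without Ctrl replicate 3 but not with any of the other 5 libraries left out, at 0.88 to 1.35, and Ier3 did not pass without CIA+THz replicate 3, at -0.78, or with FPKM as deposited, at -0.61. Jund passed as lower than in Ctrl in both arthritic groups, at -3.43 (SE 1.29) and -3.35 (SE 1.15), but its libraries were split, with 0.647, 0.831 and 29.1 rescaled FPKM in CIA and 0.737, 1.06 and 24.5 in CIA+THz against 26.4 to 30.9 in Ctrl. Leaving out any Ctrl library, or replicate 1 or 2 of the arthritic group, took both calls of Jund away, at -3.50 to -2.46.

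Among 14 other feedback inhibitors of ERK and phosphatases of MAP kinases, 2 passed between CIA and Ctrl, beside 9.04% of all genes, and 0 in the other comparisons, beside 4.54% and 7.88%. Spred2, an inhibitor of RAF activation, was lower by 1.63 on the log2 scale (SE 0.65), with overlapping libraries, and Rasa1, a Ras GTPase activating protein, by 0.72 (SE 0.20), without overlap. Both were lost without Ctrl replicate 2, at -1.36 and -0.63, and without CIA replicate 2, at -1.07 and -0.61, and Spred2 also without Ctrl replicate 3 or CIA replicate 1, at -1.39 and -1.78. Spred2 was lost as well with the replicate block (limma, unadjusted p = 0.053), without the filter and without the variance trend, and Rasa1 with a pseudocount of 1, at -0.64. The median of this list was -0.37 for CIA against Ctrl and 0.14 for CIA+THz against CIA. Of the list genes named here, 0 had an adjusted p under 0.05.

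**Figure D4:**
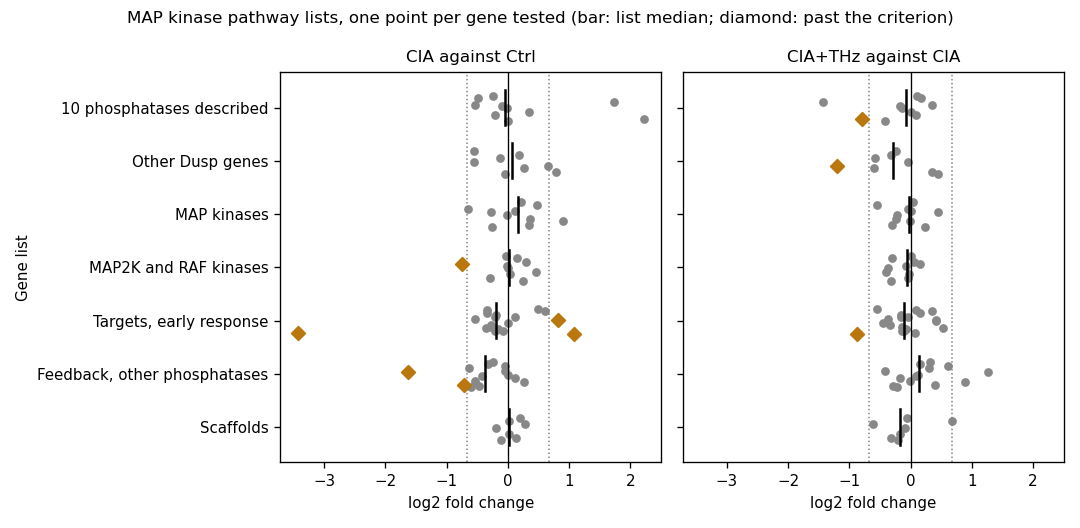
Log2 fold change of every gene tested in the 10 genes described and in 6 lists of other Dusp genes and MAP kinase pathway genes (points), with list medians (bars), dotted lines at 0.67 in either direction and diamonds for genes past the criterion. In CIA+THz against CIA the 3 diamonds are Dusp22, Dusp8 and Atf3, all below 0, and list medians lie between -0.28 and 0.14.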

How the data were processed

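The deposited table holds FPKM made by the authors for 20926 gene symbols in 9 blood libraries, whose 3 groups were read from the sample titles. The submitters' processing notes name the build mm10 and the tools bcl2fastq 2.0, HISAT2, StringTie and DESeq2, and the annotation and strand setting are not given in the sources used here. Libraries were brought to one scale by median-of-ratios factors (10312 genes above 0 in every library, factors 0.847 to 1.24). For 12366 genes, those whose rescaled FPKM averaged 0.1 or more, differences were tested as log2(rescaled FPKM + 0.1) with limma 3.58.1 (lmFit, eBayes with trend) in R 4.3.3, each pair of groups on its 6 libraries, and with an F-test over the 3 groups. A fold change on this scale understates the change of low genes. The criterion and the F-test threshold are those of the study's methods. The fits were tested on simulated data. The values used are FPKM and not read counts, and the depth per library is not given in the sources used here. In each library 11801 to 12807 genes were above 0.

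The members and lists were chosen with earlier results of these data known. Members are given in every library. Other Dusp and pathway genes are named where they passed the criterion at a mean of at least 1 rescaled FPKM, and genes of similar pattern are the 3 with the highest Pearson correlation for Dusp22, Dusp10 and Dusp16 and the first for the others (Dusp4, with a mean below 1, has none). Coordinates are those of GENCODE M21 (GRCm38, the same assembly as mm10).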

Additional observations from a re-analysis of the deposited data

How the results depend on the processing

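Alternatives were 1 change of scaling, pseudocount, filter, variance trend, adjustment, model or library at a time. The count of the 10 genes past the criterion between CIA+THz and CIA was 1 and became 0 with adjusted p-values, with FPKM as deposited and with all 3 groups in 1 fit. With 1 library left out it ranged from 1 to 2. Between CIA and Ctrl the count was 0 and became 1, Dusp22, with a pseudocount of 1, with a minimum mean of 1, with all 3 groups in 1 fit and with the replicate block. It ranged from 0 to 2 with 1 library left out, the second gene being Dusp4 without Ctrl replicate 3, and was 1 with all 3 groups in 1 fit without Ctrl replicate 2, an alternative chosen after seeing the data. For CIA+THz against Ctrl it was 0 throughout. Over the 3 groups the count was 0 and became 1 with FPKM as deposited, a pseudocount of 1 or the replicate block, each time Dusp22. It ranged from 0 to 3 with 1 library left out, the 3 being Dusp1, Dusp6 and Dusp22 without Ctrl replicate 2. Samples with the same replicate number did not deviate together (correlations of -0.05 to 0.03), so the numbers were not taken to pair them, and the block moved no other count of the 10 genes. Of the 12 calls named among the pathway lists and other Dusp genes, the block ended 1, that of Spred2 between CIA and Ctrl, and adjusted p-values ended all 12.

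The sign turned only for log2 fold changes that did not pass the criterion. With FPKM as deposited the median of all genes rose from 0.03 to 0.29 between CIA+THz and CIA and from 0.04 to 0.33 between CIA+THz and Ctrl. Between CIA and Ctrl, Dusp1 then became 0.030 and Dusp2 0.019. In CIA+THz against CIA, Dusp2 became 0.14 and Dusp7 0.094. In CIA+THz against Ctrl, Dusp2 became 0.16, Dusp6 0.17, Dusp7 0.035, Dusp10 0.10 and Dusp11 0.19. A pseudocount of 1 gave -0.055 for Dusp4 between CIA+THz and Ctrl. With 1 library left out, values between CIA and Ctrl ranged from -0.19 to 0.15 for Dusp1, -0.19 to 0.13 for Dusp2 and -0.28 to 0.068 for Dusp7. For CIA+THz against CIA they ranged from -0.22 to 0.29 for Dusp5, -0.34 to 0.053 for Dusp7, -0.047 to 0.22 for Dusp11 and -0.015 to 0.33 for Dusp16, and between CIA+THz and Ctrl from -0.31 to 1.55 for Dusp4. The added alternative gave 0.030 for Dusp2 and 0.010 for Dusp7 between CIA and Ctrl and -0.31 for Dusp4 between CIA+THz and Ctrl. Of all genes tested, 561 passed between CIA+THz and CIA (363 higher, 198 lower), 1199 with FPKM as deposited (1133 higher, 66 lower), 283 with a pseudocount of 1 and 0 with adjusted p-values. For CIA+THz against Ctrl, 975 passed (574 higher, 401 lower), 1720 with FPKM as deposited (1600 higher, 120 lower) and 13 with adjusted p-values. Between CIA and Ctrl, 1118 passed and 19 with adjusted p-values. Of 270 counts of the pathway lists under the alternatives, 57 moved by over 1.5 times or to or from 0. The causes of these shifts were not tested. With 3 libraries a group and no read counts, small differences and the zeros of Dusp4 are limited by an unknown depth.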
